A study of Mus musculus with 9 samples.

Results

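The genes described here encode surface sensors of microglia, the resident macrophages of the brain: the chemokine receptor gene Cx3cr1, the nucleotide receptor genes P2ry6, P2ry12, P2rx4 and P2rx7, the receptor genes Gpr34 and Gpr84, the nucleotide-degrading enzyme gene Entpd1, and Tmem119 and Siglech. They were chosen by gene name from a list, and all 10 were found among the 21951 genes of the count table. RNA was sequenced from BV2, a permanently growing microglial line of wild-type mouse genotype, so every group is the same cell line. Triol-treated irradiated cells received 10 µM of the steroid 5α-androst-3β, 5α, 6β-triol for 30 min before 10 Gy of X-rays in a single dose. Irradiated cells received vehicle, 20% HP-β-CD (hydroxypropyl-β-cyclodextrin), for 30 min before the same dose. Control cells received vehicle and no radiation. The time from irradiation to harvest is not given in the labels. No vehicle is named for the triol-treated cells, and in the treatment labels 7β stands in place of 6β for triol replicate 2 and 8β for replicate 3, while all titles have 6β. Each group held 3 libraries, and nothing in the labels says that they came from separate cultures, so p-values reflect how much these libraries vary, which could be technical variation alone.

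Microglia use these proteins to read damage and neuronal state. CX3CR1 binds fractalkine, a chemokine made mostly by neurons. Damaged cells release nucleotides. ATP opens the P2X ion channels, ADP acts on the G protein-coupled receptor P2Y12, which guides processes towards an injury, and UDP acts on P2Y6, which prompts phagocytosis. Entpd1 encodes CD39, which removes phosphates from extracellular ATP and ADP. GPR34 recognises lysophosphatidylserine and GPR84 medium-chain fatty acids. TMEM119 and Siglec-H are used as markers of mouse microglia. In the brain P2ry12, Tmem119, Gpr34 and Siglech are among the genes that set resting microglia apart.

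Total counts were 17230866 to 18944051 in triol-treated irradiated, 13879062 to 15192203 in irradiated and 14118475 to 17705424 in control libraries. All 10 markers of microglia and macrophages (among them Itgam, Ptprc, Csf1r, Tyrobp and Spi1) were detected in every group. Their summed level was 2267 to 2320 RPM (reads per 1000000 counted) in triol-treated irradiated, 2244 to 2324 in irradiated and 2882 to 3055 in control libraries. Some markers of other cells were also present, and the sums for astrocytes, neurons, oligodendrocytes and hepatocytes rest mostly on 1 or 2 genes each. CPM is the same unit with TMM scaling between libraries, given as group means. Astrocyte genes summed to 101 to 109 RPM in triol-treated irradiated, 104 to 114 in irradiated and 146 to 149 in control libraries, with Aqp4 and Sox9 at 0. Aldoc made up nearly all of this, with 102, 106 and 149 CPM in the same groups, while Slc1a2 had 28, 17 and 23 reads in the irradiated libraries against 10, 9 and 4 in the control libraries and was called up. Neuron genes summed to 23.5 to 24.3, 20.6 to 22.7 and 16.9 to 18.6 RPM, mostly from Syn1 (20.9, 19.3 and 17.5 CPM). Tubb3 had 29, 16 and 30 reads in the irradiated libraries against 2, 2 and 0 in the control libraries and was called up. Oligodendrocyte genes summed to 38.9 to 43.8, 38.4 to 45.6 and 34.1 to 41.2 RPM, mostly from Cnp (33.7, 34.8 and 31.3 CPM), with Olig1 and Olig2 at 0. The 15 genes of peripheral monocytes and macrophages summed to 13.6 to 15.0, 13.5 to 15.7 and 7.72 to 8.48 RPM, with Chil3 at 0 in every library. The 23 hepatocyte genes of the table summed to 51.2 to 53.5, 42.3 to 50.0 and 34.5 to 39.1 RPM, mostly from Hp and Rbp4, but 3 of the 6 tested were called up in triol-treated irradiated against irradiated cells, of 12 genes called in all. Alb had 61, 65 and 82 reads in the triol-treated irradiated libraries against 24, 11 and 2 in the irradiated libraries (edgeR adjusted p = 5.8e-04). Serpina3k had 26, 37 and 19 reads against 1, 0 and 0 in the same groups (adjusted p = 3.5e-05), and Serpina1e had 24, 20 and 14 against 0, 0 and 2 (adjusted p = 8.8e-04). limma-voom also called 3 hepatocyte genes up in that comparison, while DESeq2 gave an adjusted p to 0 of the 6 tested and could call none. Whether these transcripts had a part in the results below was not tested.

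Expression levels split the 10 genes into 6 that were well detected and 4 near the limit of detection. To compare genes with each other, CPM values were divided by the exonic length in kb, taken over the merged exons of all annotated transcripts. Which transcripts these cells use was not determined. The spread between libraries does not cover an error in that length, so the orders below hold for these lengths only. P2rx7 had 11.5 ± 0.440 CPM per kb in triol-treated irradiated, 11.9 ± 0.120 in irradiated and 11.2 ± 0.419 in control cells (SD, n = 3). Entpd1 followed with 6.85 ± 0.242, 7.05 ± 0.238 and 11.4 ± 0.388 CPM per kb in the same groups. In control cells the ranges of Entpd1 and P2rx7 overlapped, so their order there is not set, whereas in both irradiated groups every library had more P2rx7 than Entpd1 per kb. P2rx4 followed in all groups, with 6.03 ± 0.225 CPM per kb in triol-treated irradiated, 5.86 ± 0.296 in irradiated and 7.48 ± 0.294 in control cells. Cx3cr1 stood beside P2rx4 in control cells at 7.27 ± 0.336 CPM per kb, with overlapping ranges, but well below it in triol-treated irradiated (3.31 ± 0.435) and irradiated cells (3.15 ± 0.187), where it overlapped with Gpr84 instead. P2ry6 had 2.16 ± 0.280, 2.01 ± 0.106 and 4.26 ± 0.488 CPM per kb in the 3 groups, and Gpr84 had 3.19 ± 0.176, 3.12 ± 0.284 and 3.22 ± 0.934. P2ry6 and Gpr84 overlapped in control cells, while in both irradiated groups every library had more Gpr84 than P2ry6 per kb.

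The genes most used to identify microglia in tissue were the low ones. Tmem119 reached 0.576 ± 0.0235 CPM per kb in triol-treated irradiated, 0.640 ± 0.153 in irradiated and 0.486 ± 0.0656 in control cells. P2ry12 and Gpr34 overlapped with each other in every group, at 0.227 to 0.303 and 0.212 to 0.255 CPM per kb as group means. Siglech, which encodes a sialic acid-binding lectin that signals through the adaptor DAP12, had 10 reads over the triol-treated irradiated, 3 over the irradiated and 2 over the control libraries. It was the only one of the 10 genes to miss the filter on low counts, so 9 were tested.

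**Figure D1:**
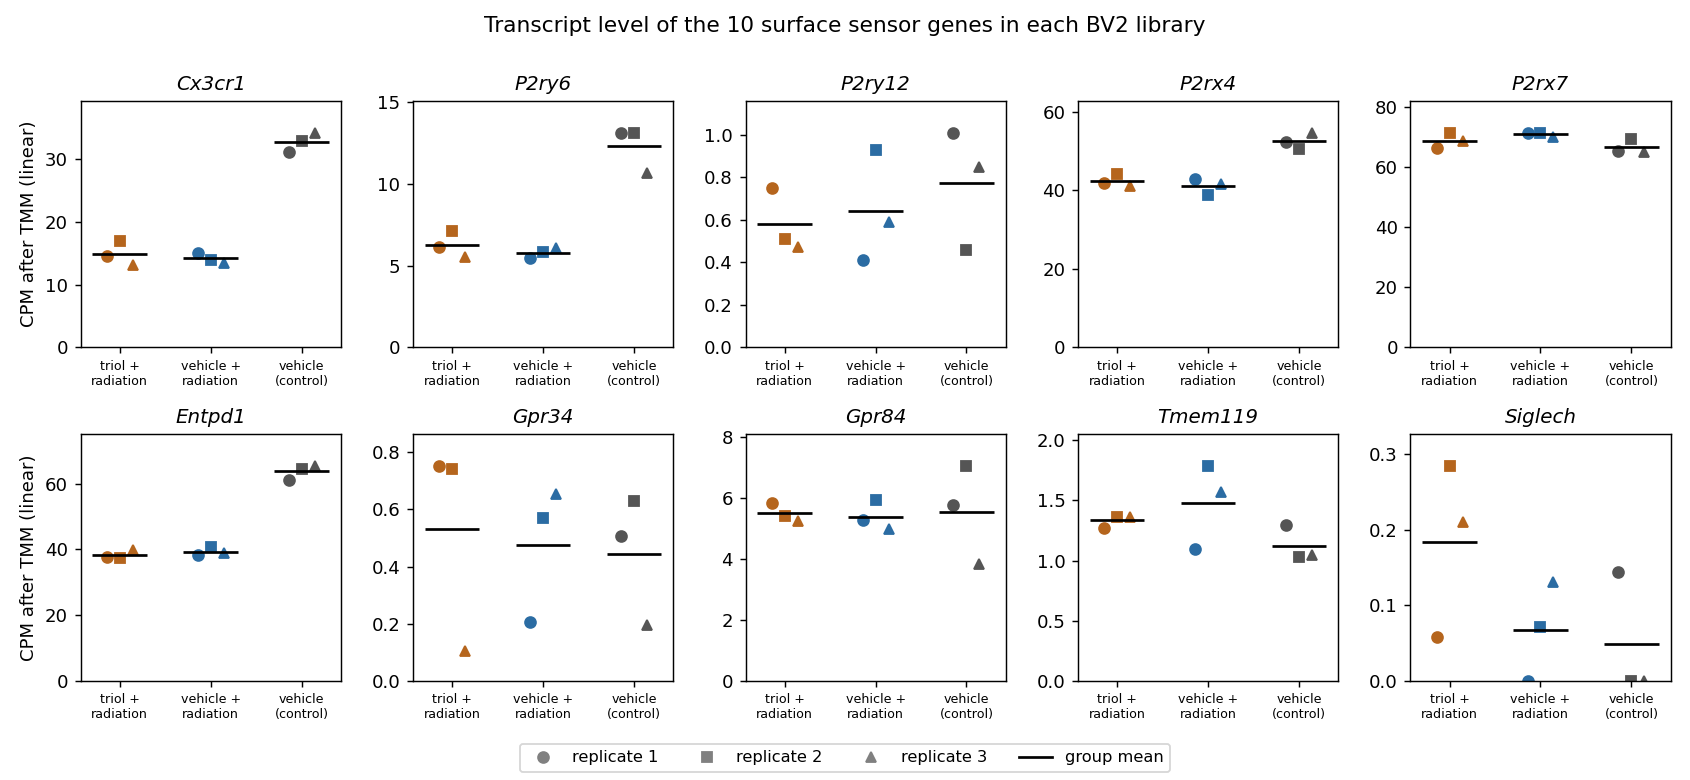
Level of each of the 10 genes in the 9 BV2 libraries, as CPM after TMM on a linear axis that starts at 0, with 1 panel per gene. Symbols are replicates and bars are group means. In Cx3cr1, P2ry6, P2rx4 and Entpd1 all libraries of both irradiated groups lie below all control libraries, while Siglech, Gpr34 and P2ry12 reach at most 1.01 CPM.

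The first comparison asked what irradiation did to these transcripts. Cx3cr1 and P2ry6 fell to less than 0.5 of their control level, Entpd1 and P2rx4 fell less, and no member was called higher. Of the 9 tested members 4 were called down and 0 up (edgeR quasi-likelihood test, Benjamini-Hochberg adjusted p under 0.05 over all 11295 tested genes), where 22.2% of all tested genes were called down and 22.1% up. That even split depends on the scaling, since 49.9% of all calls were up with TMM, 58.0% with upper quartile scaling and 59.8% with library totals. With 44.3% of all genes called either way, the number of members called is close to the background. Their median log2 fold change was −0.24, beside 0.01 over all tested genes. That median is the value of P2ry12, a gene with few reads that did not pass (edgeR adjusted p = 0.69), so it shows no shift of the members as a group. DESeq2 and limma-voom also called 4 down and 0 up.

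Cx3cr1 (ENSMUSG00000052336, chromosome 9 from 119901616 to 120069879, minus strand, GRCm38) had 15.1, 13.99 and 13.5 CPM in the irradiated libraries, against 31.2, 32.8 and 34.2 CPM in the control libraries. The groups did not overlap, as for 50.7% of all tested genes, and the lowest control library had more than 2 times the level of the highest irradiated one. The log2 fold change was −1.21 (SE 0.09, 95% interval −1.38 to −1.03, edgeR adjusted p = 2.5e-15), which left 0.433 of the control level. Ranked by log2 fold change, this was the fall at place 10 among the 11295 tested genes. The ligand gene Cx3cl1, which encodes fractalkine, was barely detected, with 12, 17 and 16 reads in the irradiated libraries against 2, 6 and 4 in the control libraries. It rose by 1.96 on the log2 scale (SE 0.48, edgeR adjusted p = 7.7e-04), so ligand and receptor transcripts moved in opposite directions. Adam10 and Adam17, whose proteases release fractalkine from the cell surface, rose by 0.10 (SE 0.03, adjusted p = 0.014) and 0.09 (SE 0.03, adjusted p = 0.022). The call of Adam10 was lost without control replicate 1 (adjusted p = 0.069) or irradiated replicate 2 (0.061) and with no filter on low counts (0.051). That of Adam17 was lost with no filter (0.067) and without control replicate 2 (log2 0.06, adjusted p = 0.17) or either of irradiated replicates 1 (0.088) and 2 (0.058).

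Among the P2Y receptors the UDP receptor gene moved and the ADP receptor gene had few reads and did not pass. P2ry6 (ENSMUSG00000048779, chromosome 7 from 100937630 to 100974649) had 5.47, 5.85 and 6.08 CPM in the irradiated libraries, against 13.1, 13.1 and 10.7 CPM in the control libraries. Every irradiated library was lower than every control library, and the log2 fold change was −1.08 (SE 0.13, 95% interval −1.34 to −0.83, edgeR adjusted p = 3.0e-09). Of all tested genes 16 were called with a log2 fold change of −1 or lower, and Cx3cr1 and P2ry6 were among them. P2ry12 (ENSMUSG00000036353, chromosome 3 from 59216272 to 59262871) had 6, 13 and 9 reads in the irradiated libraries, against 14, 8 and 13 in the control libraries. The groups overlapped, and the interval of its log2 difference ran from −1.11 to 0.64 around a value of −0.24 (edgeR adjusted p = 0.69), so a fall as large as that of P2ry6 lies within the interval.

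The P2X channel genes P2rx4 and P2rx7 lie next to each other on chromosome 5, with 16111 bases between them, and did not move alike. P2rx4 (ENSMUSG00000029470, from 122707544 to 122729738) encodes a channel opened by low ATP concentrations and had 43.0, 38.9 and 41.6 CPM in the irradiated libraries, against 52.4, 50.6 and 54.7 CPM in the control libraries. All irradiated libraries were lower, with a log2 fold change of −0.35 (SE 0.06, edgeR adjusted p = 5.4e-06). P2rx7 (ENSMUSG00000029468, from 122643911 to 122691432) encodes the channel that needs high ATP and can trigger the NLRP3 inflammasome. It had 71.4, 71.3 and 70.1 CPM in the irradiated libraries, against 65.4, 69.6 and 65.1 CPM in the control libraries. These groups did not overlap either, but the log2 difference of 0.09 (95% interval −0.01 to 0.19, edgeR adjusted p = 0.15) passed only when libraries were scaled by their totals alone (0.12, adjusted p = 0.041).

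A ratio of both channel genes within a library needs no scaling between libraries. It was added after the values above were seen, so its p-value is no separate evidence. P2rx4 over P2rx7, each per kb of exon, was 0.512, 0.464 and 0.504 in the irradiated libraries, against 0.681, 0.618 and 0.715 in the control libraries. The ratio was lower in all 3 irradiated libraries, with means of 0.493 ± 0.0259 and 0.671 ± 0.0489 (SD, n = 3 each) and a two-sided exact permutation p of 0.1, the smallest that 3 against 3 allows (Benjamini-Hochberg adjusted 0.225 over 9 ratio comparisons). Unequal change of the 2 transcripts is what such a ratio shows, not which of them stayed level. Nlrp3, which encodes the inflammasome sensor, had a log2 difference of −0.01 (95% interval −0.10 to 0.07), and Panx1, which encodes an ATP-releasing channel coupled to P2X7, one of −0.02 (−0.20 to 0.17). Neither passed the test.

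**Figure D2:**
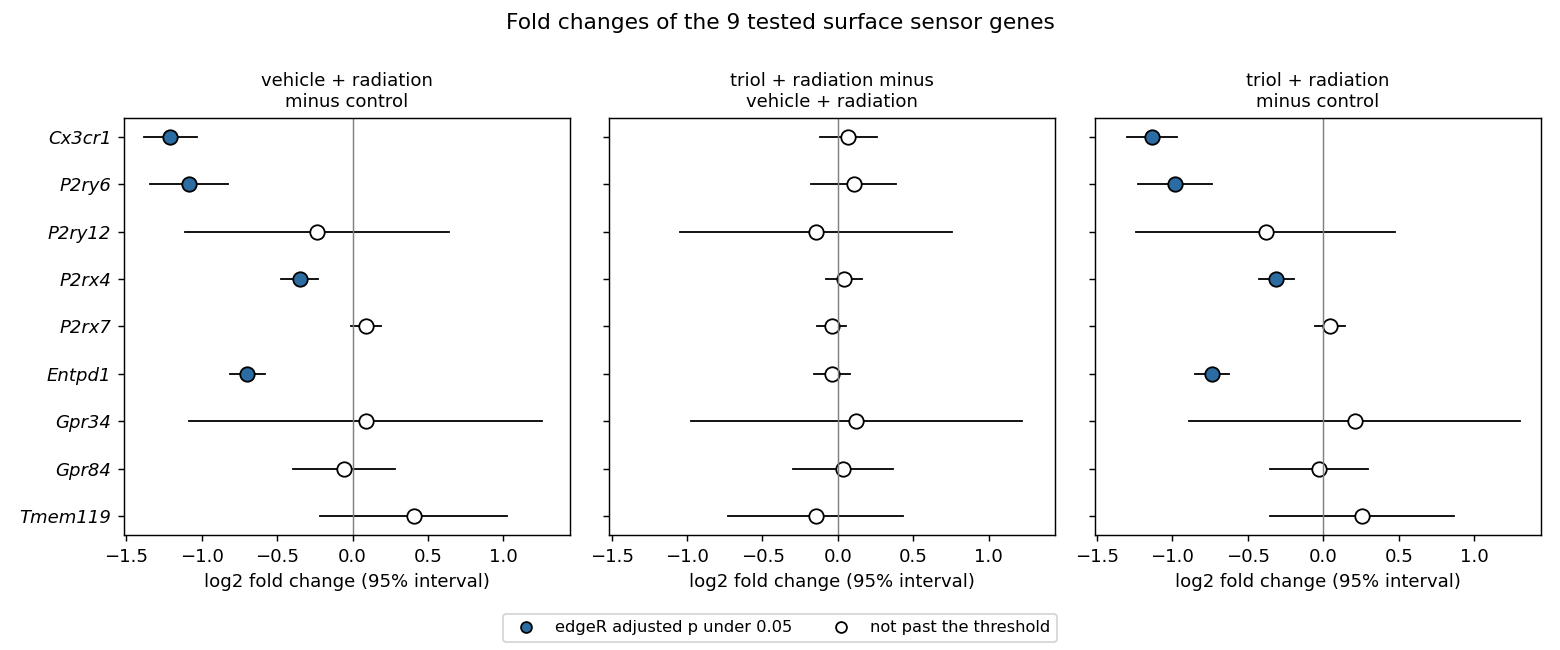
Log2 fold change of the 9 tested genes in the 3 comparisons, with 95% intervals of the edgeR fit. Filled points passed an adjusted p of 0.05. Cx3cr1, P2ry6, P2rx4 and Entpd1 are below 0 in both comparisons with control cells, and in the comparison of triol with vehicle all 9 intervals include 0.

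Entpd1 (ENSMUSG00000048120, chromosome 19 from 40612366 to 40741602) had 38.2, 40.8 and 39.0 CPM in the irradiated libraries, against 61.2, 64.5 and 65.3 CPM in the control libraries. No library of one group reached the other, and the log2 fold change was −0.70 (SE 0.06, 95% interval −0.81 to −0.58, edgeR adjusted p = 1.9e-13). Nt5e, whose product CD73 turns AMP into adenosine in the step after CD39, had 4, 1 and 4 reads in the irradiated and 2, 1 and 0 in the control libraries and was not tested.

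Promoter sequence of RefSeq on GRCm38.p6 was listed for 7 of the 10 genes, in 9 windows of 250 bases before a start. In these, 3 motifs known from myeloid and interferon-responsive promoters were searched on both strands. The core of sites for the microglial factor PU.1, written GAGGAA, was in 23.3% of all 32851 windows, the interferon response element (GAAA, any 2 bases, GAAA) in 2.98% and the composite of PU.1 and IRF (GGAA, any 2 bases, GAAA) in 2.30%. Matches of these motifs can overlap. Not every window lies outside transcribed sequence: all 250 bases of the Cx3cr1 window and 174 of the Gpr84 window are exonic in GENCODE transcripts of the same gene, as are 16 of 1 P2rx7 window and 6 of the Siglech window. Among the 9 windows of these genes the numbers were 1, 0 and 0, and the only matches were 2 copies of GAGGAA before the second listed start of Entpd1. That window is shown with that of P2rx4, a gene that also fell, whose window lies outside its exons. Both read 5′ to 3′ on the plus strand, with GAGGAA in capitals.
Entpd1, chr19:40659520-40659769: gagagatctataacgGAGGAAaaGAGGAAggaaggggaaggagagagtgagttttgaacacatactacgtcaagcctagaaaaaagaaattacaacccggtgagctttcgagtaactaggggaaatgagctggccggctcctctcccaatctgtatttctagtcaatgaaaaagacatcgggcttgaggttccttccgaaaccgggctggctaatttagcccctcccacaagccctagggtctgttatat
P2rx4, chr5:122707294-122707543: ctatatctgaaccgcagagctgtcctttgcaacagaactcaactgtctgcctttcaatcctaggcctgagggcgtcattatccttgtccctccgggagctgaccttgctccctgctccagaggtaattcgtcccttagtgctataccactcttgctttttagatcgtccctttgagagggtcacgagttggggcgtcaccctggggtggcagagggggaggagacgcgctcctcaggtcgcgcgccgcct
The first sequence holds both copies within its first 30 bases, far from the start, and the second holds none of the 3 motifs. A match of letters does not show that a factor binds, and a window without one says nothing of factors that act from elsewhere.

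The remaining members did not pass in irradiated against control cells. Gpr84 (ENSMUSG00000063234, chromosome 15 from 103308235 to 103310612) had 5.27, 5.93 and 4.97 CPM in the irradiated libraries, against 5.77, 7.04 and 3.84 CPM in the control libraries, whose wide range enclosed all irradiated values. Its log2 difference was −0.06 (95% interval −0.40 to 0.28). Of its exonic bases 39.5% overlap the gene Gm49482 on the other strand. Its count, and with it its level per kb and its place among the members, may be off in either direction if the counting ignored the strand. Tmem119 (ENSMUSG00000054675, chromosome 5 from 113793729 to 113800516) had 16, 25 and 24 reads in the irradiated libraries, against 18, 18 and 16 in the control libraries, a log2 difference of 0.41 (−0.22 to 1.03). Gpr34 (ENSMUSG00000040229, chromosome X from 13632089 to 13640858) had 3, 8 and 10 reads in the irradiated libraries, against 7, 11 and 3 in the control libraries, a log2 difference of 0.09 (−1.08 to 1.26). For Tmem119 and Gpr34 the groups overlapped. A fall as large as that of Entpd1 lies within the interval of Gpr34 and outside that of Tmem119. Siglech (ENSMUSG00000051504, chromosome 7 from 55768178 to 55778925) had 0, 1 and 2 reads in the irradiated libraries, against 2, 0 and 0 in the control libraries. Its ratio of RPM was 1.63 (95% exact interval 0.187 to 19.5, for counting error alone), and a count of 0 in a library allows up to 0.169 to 0.207 RPM in the 3 libraries without a read.

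The fall of the 4 members went along with a lower level of the genes that define the cell type. Of the 10 microglia and macrophage markers 9 fell and 0 rose in irradiated against control cells, where 22.2% of all tested genes were called down and 22.1% up. The median log2 fold change of the markers was −0.39, and their list was chosen with earlier results of these data known. Csf1r, which encodes the receptor for the growth factor CSF-1 and had the lowest fold change of these markers, fell by 0.65 on the log2 scale (SE 0.03). Every group is the same cell line, and in its bulk RNA a change in every cell and a change in some cells cannot be told apart. Set against Csf1r in the same library, per kb, Entpd1 was 0.120, 0.128 and 0.122 in the irradiated libraries and 0.116, 0.129 and 0.136 in the control libraries, so these ranges overlapped (exact permutation p = 0.6, two-sided, n = 3 each). Cx3cr1 over Csf1r was 0.0587, 0.0543 and 0.0522 in the irradiated libraries and 0.0733, 0.0814 and 0.0884 in the control libraries. That ratio was lower in every irradiated library, with a ratio of means of 0.680 (two-sided exact permutation p = 0.1, the smallest possible, adjusted 0.225). Both ratios rest on Csf1r, the marker that fell most, while the log2 fold changes of the 10 markers ran from −0.65 to −0.13. The overlap for Entpd1 therefore holds for Csf1r alone, and ratios to markers that fell less were not taken. Both ratios were added after values were seen, so their p-values are no separate evidence. What part of the fall in the members goes with the markers was not tested further.

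**Figure D3:**
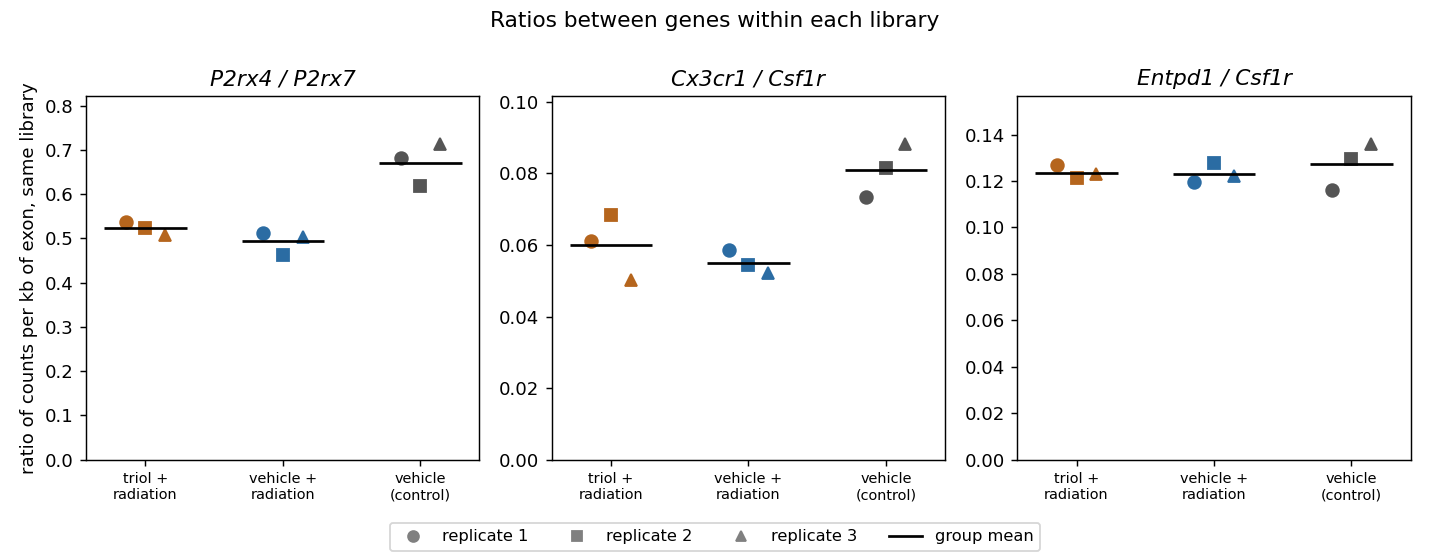
Ratios of counts per kb of exon between 2 genes of the same library, on linear axes that start at 0, with symbols for replicates and bars for group means. P2rx4 over P2rx7 and Cx3cr1 over Csf1r are lower in all 6 libraries of the irradiated groups than in the 3 control libraries, and Entpd1 over Csf1r overlaps between the groups.

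The second comparison asked whether triol given before irradiation changed these transcripts in irradiated cells. No difference passed for any member. Of the 9 tested members 0 were called by edgeR, 0 had an unadjusted p under 0.05, the lowest being 0.39, and 0 were called by limma-voom, while DESeq2 gave an adjusted p to 0 of the 9. Over all tested genes the calls were 0.0974% up and 0.00885% down, while 7.66% reached a p under 0.05 without adjustment. All 10 genes overlapped between these groups, where over all tested genes 7.35% were higher and 5.88% lower in every triol-treated library. Cx3cr1 had 14.6, 17.0 and 13.1 CPM in the triol-treated irradiated libraries, against 15.1, 13.99 and 13.5 CPM in the irradiated libraries. The triol-treated libraries spread around the irradiated ones, with a log2 difference of 0.07 (95% interval −0.12 to 0.26). P2ry6 had 6.12, 7.11 and 5.51 CPM in the triol-treated irradiated libraries, against 5.47, 5.85 and 6.08 CPM in the irradiated libraries, a log2 difference of 0.10 (−0.18 to 0.39). In both genes triol replicate 2 was the highest of the 6 libraries.

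For the channels and CD39 the intervals were narrow. P2rx4 had 41.9, 44.2 and 41.1 CPM in the triol-treated irradiated libraries, against 43.0, 38.9 and 41.6 CPM in the irradiated libraries, with a log2 difference of 0.04 (95% interval −0.08 to 0.16). P2rx7 had 66.3, 71.5 and 68.8 CPM in the triol-treated irradiated libraries, against 71.4, 71.3 and 70.1 CPM in the irradiated libraries, with a log2 difference of −0.04 (−0.14 to 0.06). Entpd1 had 37.6, 37.3 and 39.8 CPM in the triol-treated irradiated libraries, against 38.2, 40.8 and 39.0 CPM in the irradiated libraries, with a log2 difference of −0.04 (−0.16 to 0.08). The libraries of both groups were interleaved in each of these genes. P2rx4 over P2rx7 was 0.537, 0.525 and 0.508 in the triol-treated irradiated libraries, against 0.512, 0.464 and 0.504 in the irradiated libraries (two-sided exact permutation p = 0.2, n = 3 each, adjusted 0.36). For Gpr84 the log2 difference was 0.03 (−0.30 to 0.36), with 5.84, 5.41 and 5.25 CPM in the triol-treated irradiated libraries, against 5.27, 5.93 and 4.97 CPM in the irradiated libraries. Cx3cr1 over Csf1r was 0.0611, 0.0684 and 0.0502 in the triol-treated irradiated libraries, a range that encloses the irradiated ones (two-sided exact permutation p = 0.5, n = 3 each, adjusted 0.675).

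The low members were the least certain. P2ry12 had 13, 9 and 9 reads in the triol-treated irradiated libraries, against 6, 13 and 9 in the irradiated libraries, and its log2 difference of −0.15 had an interval from −1.05 to 0.75. Tmem119 had 22, 24 and 26 reads in the triol-treated irradiated libraries, against 16, 25 and 24 in the irradiated libraries, with an interval from −0.73 to 0.43. Gpr34 had 13, 13 and 2 reads in the triol-treated irradiated libraries, against 3, 8 and 10 in the irradiated libraries, with an interval from −0.98 to 1.22. Siglech had 1, 5 and 4 reads in the triol-treated irradiated libraries, against 0, 1 and 2 in the irradiated libraries, a ratio of RPM of 2.71 (95% exact counting interval 0.697 to 15.3). None of these intervals leaves out equal levels, and none is narrow enough to show them.

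The third comparison set triol-treated irradiated cells against control cells. It shares the control libraries with the first comparison and the triol-treated libraries with the second, so its values are given beside them and are no separate evidence. The same 4 members, Cx3cr1, P2ry6, P2rx4 and Entpd1, were lower than in control cells, of 9 tested, where 21.7% of all tested genes were called down, 21.5% up and 43.3% either way, and 49.8% had an unadjusted p under 0.05. Their log2 fold changes were −1.14 (SE 0.08) for Cx3cr1, −0.98 (SE 0.12) for P2ry6, −0.31 (SE 0.06) for P2rx4 and −0.74 (SE 0.06) for Entpd1, with edgeR adjusted p between 4.2e-15 and 2.6e-05. All triol-treated libraries were below all control libraries in these 4 genes, as for 25.6% of tested genes, and 51.1% of tested genes did not overlap in either direction. P2rx7 had a log2 difference of 0.05 (95% interval −0.05 to 0.14), and its libraries overlapped with control. Siglech had a ratio of RPM of 4.42 (95% exact counting interval 0.941 to 41.4), from 10 reads against 2. The differences of P2ry12 (−0.38), Gpr34 (0.21), Tmem119 (0.26) and Gpr84 (−0.03) did not pass.

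Other genes of the same pathways were read from fixed lists, chosen with earlier results of these data known. The counts of each list in irradiated against control cells stand beside 22.2% of all tested genes called down, 22.1% up and 44.3% either way. Of 16 other receptors for nucleotides and adenosine 9 were tested, and in irradiated against control cells 1 rose and 1 fell, with a median log2 fold change of −0.19. P2ry1, another ADP receptor gene, fell by 0.48 (SE 0.11, adjusted p = 5.9e-04), and 23.1% of its exonic sequence lies in a gene on the other strand. P2rx5, with 13, 7 and 16 reads in the irradiated and 3, 2 and 7 in the control libraries, rose by 1.64 (SE 0.52, adjusted p = 0.0089), a call lost without control replicate 2 (0.082) or irradiated replicate 3 (0.062). Adora2a, an adenosine receptor gene, had 45, 34 and 41 reads in triol-treated irradiated, 24, 21 and 34 in irradiated and 15, 15 and 30 in control libraries. It was called against control in the triol-treated cells (0.79, adjusted p = 0.020), but not with DESeq2 (0.054) or without control replicate 1 (0.080), control replicate 2 (0.18) or triol replicate 1 (0.095). Without control replicate 3 its value was 1.20. In irradiated cells it had 0.48 (adjusted p = 0.20), and 0.89 without control replicate 3 (0.034).

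Of 22 genes of nucleotide turnover and release 21 were in the table and 11 were tested, and 4 rose and 1 fell in irradiated against control cells (median 0.05). Pnp, which encodes a purine nucleoside phosphorylase, had 35.3 ± 0.858 CPM in irradiated and 23.2 ± 2.28 CPM in control cells (SD, n = 3), a log2 fold change of 0.60 (SE 0.07). It shares 18% of its exonic bases with another gene of the same strand. Slc29a2, a nucleoside transporter gene, rose by 0.33, a call lost without control replicate 2 (adjusted p = 0.064) or irradiated replicate 2 (0.075) and with DESeq2 (0.051). Entpd5 rose by 0.14 and lost its call without control replicate 1 (0.063), control replicate 3 (0.15) or either of irradiated replicates 2 (0.060) and 3 (0.14), with DESeq2 (0.061) and with no filter (0.071). The related enzyme gene Entpd7 fell by 0.30 (SE 0.08). DESeq2 called 1 of these genes up and 1 down.

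Of 25 partners and downstream genes 23 were tested, of which 7 rose and 14 fell in irradiated against control cells (median −0.17). Arrb1, which encodes a β-arrestin that switches off G protein-coupled receptors, fell by 0.56 (SE 0.04). Kcnk13, which encodes the potassium channel THIK-1 that P2Y12 signalling can activate, fell by 0.51 (SE 0.08), with 24.2 ± 0.649 CPM in irradiated and 34.5 ± 2.90 CPM in control cells. Tyrobp, which encodes DAP12, the adaptor of Siglec-H, fell by 0.48 (SE 0.04). Besides Cx3cl1, Il1b rose by 0.72 (SE 0.21), a call lost without control replicate 2 (0.44, adjusted p = 0.10), and Pla1a, which encodes an enzyme that makes lysophosphatidylserine, the ligand of GPR34, rose by 0.58 (SE 0.09).

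Of 46 other homeostatic microglial genes 37 were tested, and 21 fell and 5 rose in irradiated against control cells, with a median of −0.23. This share fallen is above the 22.2% of all tested genes, but the list was drawn up with results of these data known and shares genes with the markers above, Csf1r among them, and with the other lists, P2ry13 among them. C1qc fell by 1.30 (SE 0.25), with 17, 28 and 19 reads in the irradiated and 42, 78 and 49 in the control libraries. Maf fell by 1.20 (SE 0.22), with 40, 27 and 22 reads against 65, 97 and 57. Gpr183, an oxysterol receptor gene with more reads, fell by 1.07 (SE 0.09). Among those that rose were Tgfbr1 (0.40) and Golm1 (0.24, with 29.3% of its exonic bases in a gene on the other strand), and Adgrg1 (0.49), whose call was lost without control replicate 3 (adjusted p = 0.070) or irradiated replicate 2 (0.060). Of 23 other chemoattractant and danger receptor genes 14 were tested, and 8 fell and 3 rose (median −0.18). The fallen ones included Hcar2, a receptor gene for hydroxybutyrate and niacin (−0.55), Ccr1 (−0.48) and S1pr1 (−0.36). Ccrl2, an atypical chemokine receptor gene, rose by 1.34 (SE 0.20) and C5ar2, a second receptor gene for the complement fragment C5a, by 0.83 (SE 0.20). Gpr35 rose by 0.25 and lost its call without control replicate 1 (0.12), control replicate 3 (0.063) or either of irradiated replicates 1 (0.072) and 3 (0.14), with DESeq2 (0.082) and with no filter (0.070).

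In triol-treated irradiated against irradiated cells none of these 5 lists had a called gene by edgeR, DESeq2 or limma-voom, though DESeq2 gave no adjusted p to most of them. At an unadjusted p under 0.05 there were 0 of 9 other nucleotide receptors, 0 of 11 turnover genes, 2 of 23 partners, 4 of 37 homeostatic genes and 2 of 14 other receptors, beside 7.66% of all tested genes. Against control cells the triol-treated irradiated cells had 2 up and 1 down, 3 up and 1 down, 6 up and 14 down, 5 up and 22 down, and 3 up and 7 down in the 5 lists in the order above. Over all tested genes 21.5% were called up and 21.7% down in that comparison. By the same rule C1qb (−1.11, SE 0.23) and C5ar1 (−0.42) were named there. C1qb had 33, 30 and 31 reads in the triol-treated irradiated and 60, 64 and 52 in the control libraries. In that comparison C5ar2 had 0.57 and lost its call without control replicate 1 (adjusted p = 0.079) or triol replicate 3 (0.11), and S1pr1 had −0.35 and lost it without triol replicate 3 (−0.23, adjusted p = 0.056).

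**Figure D4:**
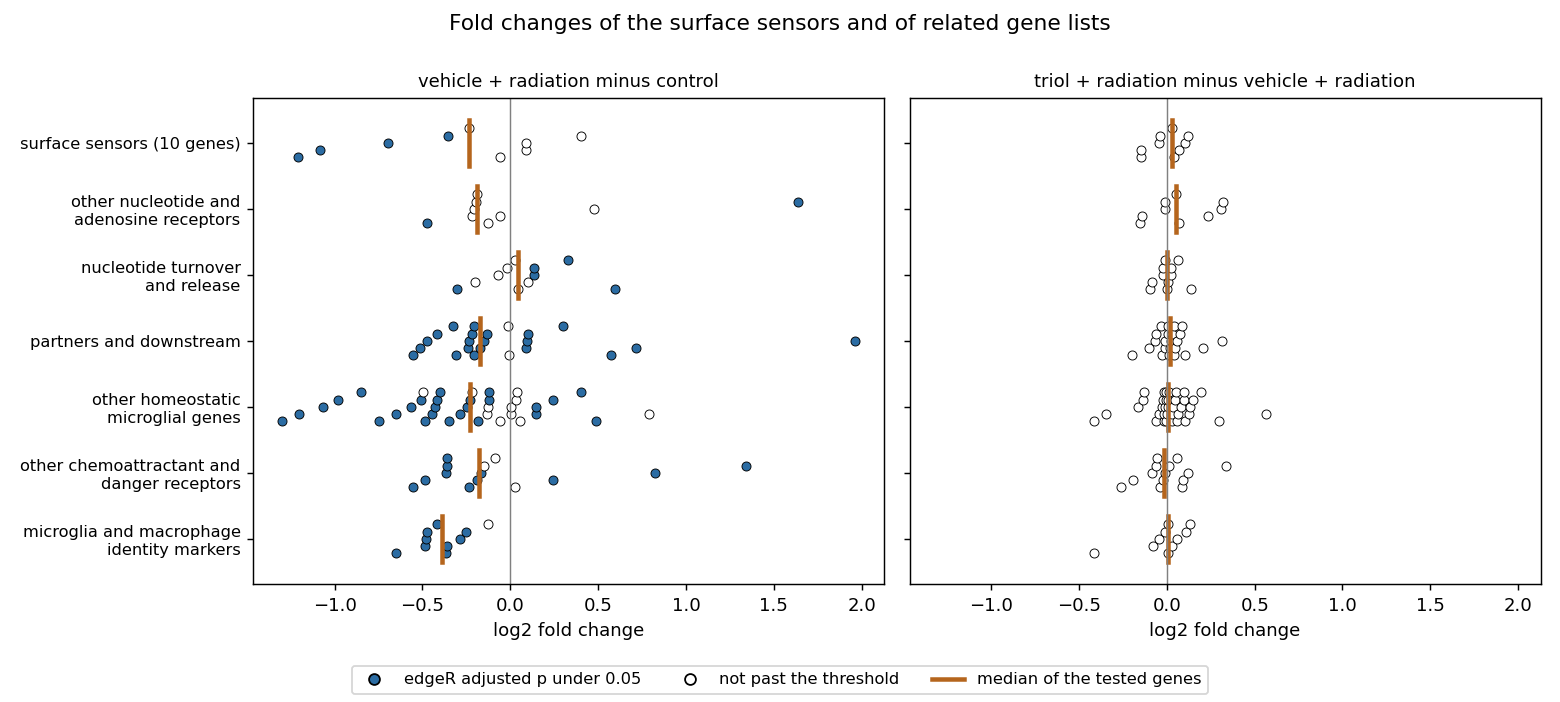
Log2 fold change of each tested gene of the 10 surface sensors, 5 related lists and the microglia and macrophage markers, for irradiated against control cells and for triol-treated irradiated against irradiated cells. Filled points passed an adjusted p of 0.05 and bars are medians. After irradiation, points lie on both sides of 0 in all lists but the markers, which are all below 0, with medians from −0.39 to 0.05, and with triol no point is filled.

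Over the 9 libraries, log2 CPM of Cx3cr1 correlated with that of P2rx4 (Pearson r = 0.97), P2ry6 (0.97) and Entpd1 (0.96), with P2rx7 at −0.57 and Gpr84 at −0.04. These points share the groups, so the values mostly restate the gap between control and irradiated libraries and carry no test. Among 8691 genes with at least 10 CPM, those most like Cx3cr1 were Ptprc (r = 0.995), Lmo2 (0.994), Pmvk (0.994), Atp2c1 (0.993) and Gpr183 (0.993). Ptprc encodes the leukocyte antigen CD45 and had 411 CPM in triol-treated irradiated, 409 in irradiated and 498 in control cells as means. Gpr183 had 13.7, 13.6 and 28.3 CPM in the same groups, the only one of the 5 with a fall close in size to that of Cx3cr1. Most like P2ry6 were Arl4c (0.990), Prkx (0.989), Dab2 (0.988), Ap2b1 (0.986) and Kif13a (0.986), each with a smaller fall, of 0.15 to 0.46 on the log2 scale, than the 1.08 of P2ry6.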

How the data were processed

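RNA of 9 BV2 libraries, 3 per group, was sequenced. Per the labels' protocols, RNA was extracted with Trizol and libraries made with the NEBNext Ultra kit. The authors deposited raw whole-number counts per gene. Tools named in the submitters' processing notes are STAR 2.7.1a, featureCounts (Subread 1.6.3), fastp 0.18.0 and FastQC, with the build GRCm38. Strand setting, annotation release and handling of multimapping: not given in the sources used here. GENCODE M21 held all 21951 gene identifiers and gave coordinates, exonic lengths and overlaps.

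Groups and replicate numbers came from the titles. filterByExpr kept 11295 genes. edgeR 4.0.16 under R 4.3.3 tested the counts by quasi-likelihood (TMM, robust, 1 fit over all 9 libraries, 6 residual degrees of freedom, two-sided), with Benjamini-Hochberg adjustment over all tested genes and a threshold of 0.05. The method was also run on simulated counts in which a small share of genes changed, as many up as down. That setting lacks the broad change seen against control, so it cannot test the scaling there, and nothing is concluded from it. Alternatives were DESeq2 1.42.0, limma-voom 3.58.1, RLE, upper quartile and total scaling, no filter, 2 groups only, the replicate number as a block, and each library left out. Ratios within a library were added after values were seen, and intervals on reads cover counting error only. Named beyond the members were up to 3 called genes with the largest change per list, comparison and direction, fixed partners, and the 5 genes most correlated with Cx3cr1 and with P2ry6. The members and lists were chosen with earlier results of these data known. Acp3 and Tf of the lists were not matched to the table. Some listed genes are counted in their lists and not reported here by name.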

Additional observations from a re-analysis of the deposited data

How the results depend on the processing

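Under the 17 alternatives, Cx3cr1, P2ry6, P2rx4 and Entpd1 were called down against control in irradiated and in triol-treated irradiated cells each time. For irradiated against control cells the log2 fold change ran from −1.26 to −1.17 for Cx3cr1, −1.18 to −1.03 for P2ry6, −0.39 to −0.32 for P2rx4 and −0.73 to −0.66 for Entpd1. The members called were 4 in each alternative, except 5 with total scaling, which added P2rx7. In triol-treated irradiated against irradiated cells 0 members were called in all, but DESeq2 gave an adjusted p to 0 of the 9 tested members there and could call none. The number of all genes called there was 12, and 19 with DESeq2, 36 with no filter on low counts, 22 with only the 2 groups compared and 6 to 19 on leaving out 1 library. It was 7 without each of the irradiated replicates or triol replicate 1, 6 without triol replicate 2 and 19 without control replicate 3. With the replicate number as a block it was 22, and 5005 and 4876 genes were called against control in irradiated and triol-treated irradiated cells, with no change in the calls of members. Deviations of same-numbered libraries correlated at −0.05 to 0.04, those of other libraries at −0.07 to 0.06, and 4 of 9 libraries correlated best with their own number. These values give no sign that the numbers pair the libraries, but they cannot show that a weak pairing is absent. The causes of these shifts were not tested. Depth limits P2ry12, Gpr34, Tmem119 and Siglech, with 0 to 26 reads per library.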
